A study of Homo sapiens with 6 samples.

Results

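The genes followed here are 10 interferon-inducible genes, namely IFI6, IFI16, IFI27, IFI30, IFI35, IFI44 and IFI44L, whose symbols carry IFI and a number, together with EPSTI1, XAF1 and NMI. They were taken by symbol from the 28278 symbols that each count file lists, and all 10 were found. The list was put together with the siALDOA against siControl values of the interferon genes already known, so the differences between siALDOA and siControl given for these 10 genes are a description. No p is printed for any single one of them, and the calls counted below are not read as support. The symbols IFI27L1 and IFI27L2 also carry IFI and a number. They are not among the 10 genes and are described with their relatives below.

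The RNA came from HT29, an epithelial line from a human colorectal adenocarcinoma. The siALDOA group (genotype ALDOA KD in the labels) received an siRNA against ALDOA, the glycolytic enzyme aldolase A, and the siControl group (genotype WT) received a scrambled siRNA. RNA was isolated 48 h later from both groups, and each group holds 3 libraries labelled as biological replicates. The labels name 1 cell line and 1 siRNA treatment against ALDOA, so the loss of ALDOA and other effects of that siRNA cannot be told apart.

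The libraries held from 27277538 to 33237914 counts on genes, and 1 count corresponded to between 0.030 and 0.036 CPM, the usual unit of counts scaled for library size. ALDOA was at 283, 305 and 280 CPM in the siALDOA libraries and at 592, 637 and 668 CPM in the siControl libraries, a log2 fold change of -1.13 ± 0.060 (standard error, SE). Of 10 markers of colon epithelium, 9 were measured well enough to be tested and LGALS4 was listed at 0 in every library. Their summed level ranged from 8385 to 8619 CPM with siALDOA and from 9193 to 9658 CPM with siControl, and KRT18 was the 1 marker that passed the test, toward lower values. Of 10 markers of blood cells, TYROBP, CD3E and S100A8 had 0 counts in every library, and the summed level of the 10 lay between 0.765 and 1.27 CPM with siALDOA and between 0.721 and 1.12 CPM with siControl. The 8 markers of fibroblasts and endothelium summed to between 3.16 and 4.33 CPM with siALDOA and to between 3.05 and 4.46 CPM with siControl, and COL1A2 and KDR had 0 counts. Ribosomal RNA took from 7.71% to 13.1% of the counts with siALDOA and from 8.15% to 17.4% with siControl, and its part in the values below was not tested.

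Interferons are secreted signals that put cells into an antiviral state. Type I and type III interferons act through a transcription factor complex with STAT2 and IRF9, which binds the interferon-stimulated response element (ISRE) in the promoters of target genes. Interferon gamma acts in large part through another element, the gamma-activated sequence (GAS). The IFI names were given to transcripts found by their induction with interferon. The proteins are unrelated in large part: IFI6 and IFI27 are small membrane proteins found at mitochondria, IFI16 binds DNA in the nucleus, IFI30 is a lysosomal thiol reductase, and XAF1 counteracts the apoptosis inhibitor XIAP.

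The promoters are shown first, since their letters do not depend on the counts. The 10 genes were chosen as interferon-inducible, so their shares with a match are a description and are not read as support. RefSeq start sites (GRCh38.p14) gave 14 windows of 300 bases for the 10 genes, from 250 bases before to 50 after each start, and IFI16, IFI27, IFI44 and XAF1 had 2 windows each. Both strands were searched for the ISRE core, written here as GAAA, any 2 bases and GAAA again. It was found in 6 of the 10 genes, namely IFI6, IFI27, IFI44, IFI44L, EPSTI1 and NMI, against 4.38% of the 27305 genes with a window. By window the core was in 8 of 14, against 3.57% of all 35116 windows. For each of these genes the site nearest to the start is given 5′ to 3′ along the gene, in 30 bases with the core in capitals. A core that begins with TTTC lies on the opposite strand.
IFI6, chr1:27672266-27672295, minus strand: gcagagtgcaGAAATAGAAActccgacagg
IFI27, chr14:94110631-94110660, plus strand: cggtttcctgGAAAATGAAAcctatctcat
IFI44, chr1:78649761-78649790, plus strand: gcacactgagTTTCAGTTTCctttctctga
IFI44L, chr1:78620365-78620394, plus strand: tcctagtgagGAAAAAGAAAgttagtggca
EPSTI1, chr13:42992272-42992301, minus strand: ctgattctgaGAAACCGAAActcagctgtt
NMI, chr2:151289812-151289841, minus strand: ttaaagcagtTTTCTTTTTCactgtctttt

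The core of EPSTI1 began 50 bases upstream of its start, that of IFI44L 73 bases upstream and that of NMI 163 bases upstream. That of IFI44 began 18 or 60 bases upstream, depending on the window. IFI6 held 3 cores, which began 156, 115 and 93 bases upstream, and the first and the second had the same letters, GAAAATGAAA. IFI44L held the same 30 bases a second time, with the core 164 bases upstream. IFI27 held 2 cores on opposite strands, TTTCGGTTTC and GAAAATGAAA, with a GAS core between them that overlapped both.

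XAF1, IFI16 and IFI35 lacked this core but carried the same pair of GAAA with 1 base between them, GAAANGAAA. This form was searched after the sequences had been seen. It was present in 5 of the 10 genes (XAF1, IFI16, IFI35, IFI44 and NMI), against 3.87% of all genes with a window, and in IFI44 it overlapped the first form. The sites of the 3 genes without the first form are given in the same way.
XAF1, chr17:6756031-6756060, plus strand: ttgcctgcaaGAAACGAAActcaaccgaaa
IFI16, chr1:159009843-159009872, plus strand: ctgactaacaGAAACGAAAgctaaaaacac
IFI35, chr17:43006758-43006787, plus strand: ggatttcacgGAAATGAAAgtggaagcaaa

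The site of XAF1 began 5 bases upstream of the start and crossed it, that of IFI16 began 54 bases upstream and that of IFI35 began 16 bases upstream. Either form was present in 9 of the 10 genes, against 7.83% of all genes with a window. IFI30 was the 1 gene whose window held neither. The GAS core TTCNNNGAA was found in 4 genes, IFI27, IFI35, EPSTI1 and NMI, against 9.38% of all genes. In EPSTI1 it overlapped the ISRE core, in IFI35 it overlapped the form with 1 base between the pair, and in NMI it lay 18 bases after the start. These matches describe letters in a window, and binding was not measured.

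**Figure D1:**
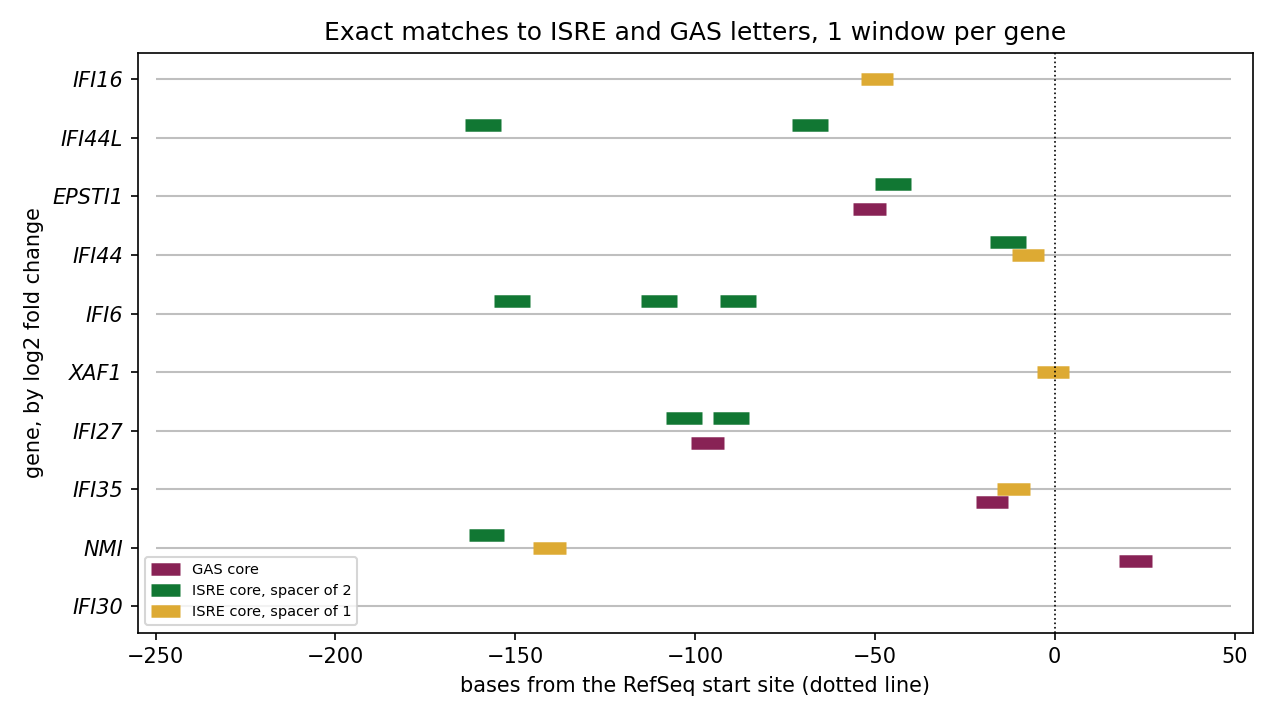
Position of exact matches to the ISRE core (spacer of 2 bases), to the form GAAANGAAA (spacer of 1 base) and to the GAS core. Positions are in bases from the start site in the RefSeq promoter window of each gene, with genes ordered by their log2 fold change. The legend calls GAAANGAAA an ISRE core with a spacer of 1, a form searched after the sequences had been seen. For genes with 2 windows, the window with more matches is drawn, or the first by position where they tie. IFI6 holds 3 ISRE cores and the line of IFI30 is empty.

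For 9 of the 10 genes, the lowest siALDOA value lay above the highest siControl value, and for IFI30 the groups overlapped. Of the 15307 genes tested, 13.1% had the siALDOA group wholly above and 14.6% wholly below, 27.7% in all. The 10 genes together summed to 1289, 1468 and 1421 CPM with siALDOA and to 645, 710 and 624 CPM with siControl. Their median log2 fold change was 1.42, against 0.0016 for all genes tested. At an adjusted p below 0.05 by edgeR's quasi-likelihood test, the same 9 genes were called higher and 0 lower, while 4.36% of all tested genes were called higher and 5.29% lower, 9.66% in all. Because the genes were chosen on this contrast, nothing is read from these counts. Every gene had at least 19 counts in every library, so no gene passed the filter on low counts through the siALDOA group alone. In bulk RNA, a higher level in each cell and a larger share of cells with the transcript cannot be told apart.

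**Figure D2:**
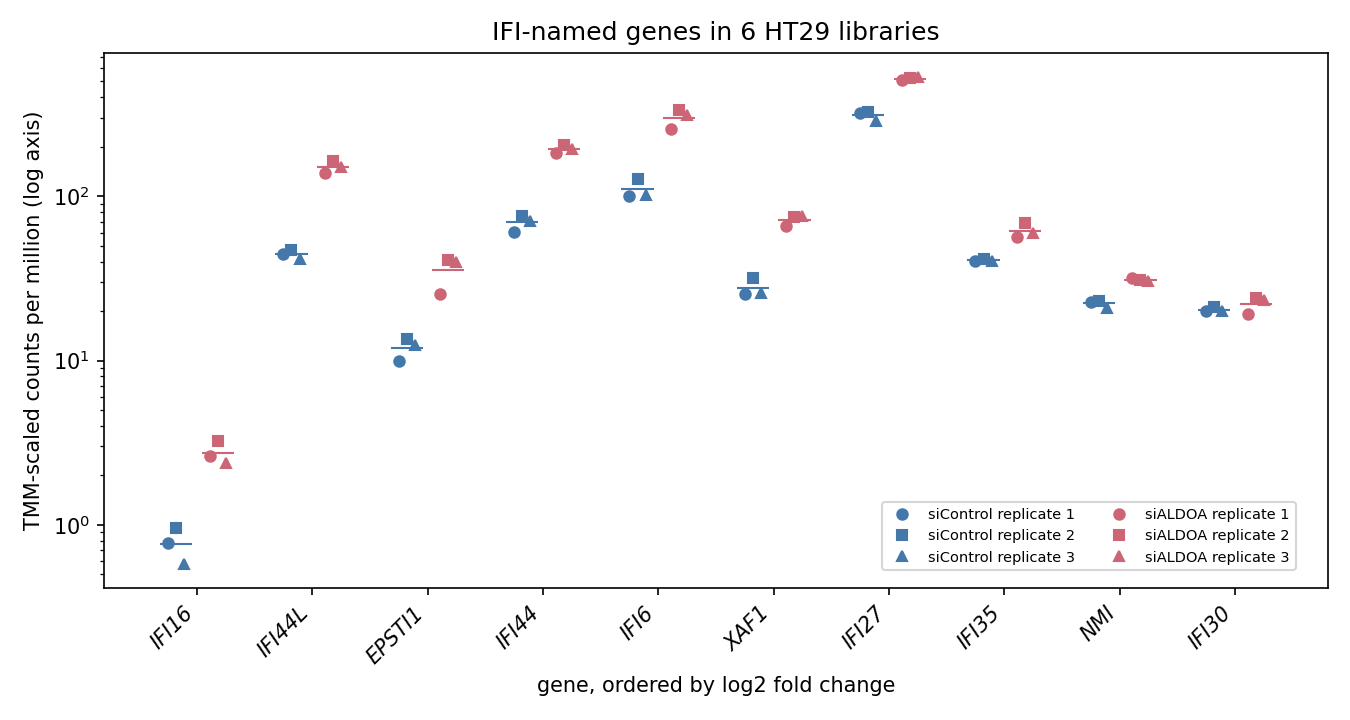
Level of each of the 10 genes in each library, as TMM-scaled CPM on a log axis, with blue for siControl, red for siALDOA, marker shapes for the replicates and lines for the group means. The groups are apart for every gene except IFI30, whose siALDOA values run from 19.1 to 23.9 CPM around siControl values of 19.9 to 21.3 CPM.

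IFI44L and IFI44 are neighbouring relatives on chromosome 1, which lie head to tail on the plus strand with 3651 bases between them, and both proteins have been tied to the antiviral response. IFI44L (ENSG00000137959, chromosome 1, 78619902 to 78646145 of hg38) was at 139, 163 and 151 CPM with siALDOA and at 44.3, 47.3 and 41.3 CPM with siControl. Its mRNA level was thus 151 ± 11.5 CPM (SD, n = 3) against 44.3 ± 3.02 CPM (SD, n = 3). This was 3.41-fold, or 1.77 ± 0.071 (SE) on the log2 scale, and the groups were far apart. IFI44 (ENSG00000137965, chromosome 1, 78649796 to 78664078) was at 183, 204 and 195 CPM with siALDOA and at 60.9, 76.0 and 70.9 CPM with siControl. The 2 groups of IFI44 did not overlap, and its log2 fold change was 1.49 ± 0.073 (SE). The ratio of IFI44L to IFI44 counts was 0.762, 0.796 and 0.774 with siALDOA and 0.728, 0.623 and 0.583 with siControl, so that every siALDOA library had the higher ratio. The nearest other coding genes on either side, PTGFR and ADGRL4, had too few counts to be tested.

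IFI6 and IFI27 belong to 1 family of small hydrophobic proteins. IFI6 (ENSG00000126709, chromosome 1, 27666064 to 27672212, minus strand) was at 258, 333 and 314 CPM with siALDOA and at 101, 127 and 102 CPM with siControl. The difference was 2.74-fold, 1.45 ± 0.089 (SE) on the log2 scale. IFI27 (ENSG00000165949, chromosome 14, 94104836 to 94116695) was at 507, 526 and 530 CPM with siALDOA and at 321, 327 and 289 CPM with siControl. Its difference was 1.67-fold, 0.74 ± 0.058 (SE) on the log2 scale, and for both genes the groups did not overlap. IFI27 supplied from 35.8% to 39.3% of the summed CPM of the 10 genes with siALDOA and from 46.1% to 49.7% with siControl. IFI6 supplied from 20.0% to 22.7% and from 15.6% to 17.9%, respectively, so the make-up of the group differed between siALDOA and siControl as well as its sum.

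The relatives IFI27L1 and IFI27L2 lie beside IFI27. IFI27L1, 990 bases to the left, showed 215, 138 and 170 counts in the siALDOA libraries and 141, 110 and 135 counts in the siControl libraries. It differed by 0.58 ± 0.19 (SE) on the log2 scale, with an adjusted p of 0.0612 in edgeR's quasi-likelihood test. The difference was 0.37 without siALDOA replicate 1 and 0.75 without siALDOA replicate 2. IFI27L1 passed the threshold under 5 of 13 alternatives, and over all 13 the adjusted p lay between 0.0135 and 0.268. IFI27L2, 11084 bases to the right on the other strand, was at 0.03 on the log2 scale (standard error 0.14, edgeR adjusted p = 0.933). IFI27L2 was at 7.27 CPM on average over both groups.

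IFI16, a sensor of DNA in the nucleus, had the lowest level per length. Its log2 fold change was 1.84, with the widest standard error of the 10 genes, 0.30. It was not set apart from IFI44L at 1.77, and without siControl replicate 3 IFI16 was at 1.67 and IFI44L at 1.72. IFI16 (ENSG00000163565, chromosome 1, 158999968 to 159055155) was at 2.62, 3.23 and 2.39 CPM with siALDOA (73, 97 and 68 counts) and at 0.770, 0.950 and 0.577 CPM with siControl (24, 29 and 19 counts). The groups were apart, at 3.59-fold. Its relatives AIM2, MNDA and PYHIN1, which also sense DNA or carry the same DNA-binding domain, were not tested for lack of counts. AIM2 had 1 count in 1 siALDOA library, and MNDA and PYHIN1 had 0 counts in every library. Of the genes of the same DNA-sensing route, STING1, the adaptor at the endoplasmic reticulum, rose by 0.55 on the log2 scale (standard error 0.10, edgeR adjusted p = 0.00147). CGAS was at 0.15 ± 0.12 (SE), TBK1 at -0.05 ± 0.079 (SE) and IRF3 at 0.09 ± 0.057 (SE), and none of these 3 genes passed the test.

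EPSTI1 and XAF1 showed differences of similar size. EPSTI1, named for epithelial stromal interaction (ENSG00000133106, chromosome 13, 42886388 to 42992271, minus strand), was at 25.3, 41.2 and 39.6 CPM with siALDOA and at 9.97, 13.5 and 12.4 CPM with siControl. All siALDOA values were above the siControl values, by 2.96-fold or 1.57 ± 0.14 (SE) on the log2 scale. The value of siALDOA replicate 1 lay well below the other 2 siALDOA libraries, and without this library the log2 fold change of EPSTI1 was 1.76. XAF1 (ENSG00000132530, chromosome 17, 6755447 to 6775647) was at 66.2, 75.0 and 75.4 CPM with siALDOA and at 25.3, 31.8 and 25.6 CPM with siControl. The 2.62-fold difference, 1.39 ± 0.086 (SE) on the log2 scale, again left no overlap. XIAP, the apoptosis inhibitor that XAF1 binds, was at -0.04 ± 0.057 (SE) on the log2 scale and did not pass the test.

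IFI35 and NMI form a pair, since both proteins share a domain and bind each other. IFI35 (ENSG00000068079, chromosome 17, 43006740 to 43014456) was at 56.3, 68.3 and 59.7 CPM with siALDOA and at 40.2, 41.7 and 40.5 CPM with siControl. NMI (ENSG00000123609, chromosome 2, 151270470 to 151289894, minus strand) was at 31.8, 31.0 and 30.5 CPM with siALDOA and at 22.7, 23.2 and 20.9 CPM with siControl. For both genes the groups were apart, and the spread was wider for IFI35 with siALDOA than with siControl (SD 6.21 and 0.804 CPM). The log2 fold changes were 0.59 ± 0.075 (SE) for IFI35 and 0.48 ± 0.082 (SE) for NMI, which are 1.51-fold and 1.40-fold. The ratio of IFI35 to NMI counts ran from 1.77 to 2.21 with siALDOA and from 1.77 to 1.94 with siControl, and these ranges overlapped. VAT1, which lies 151 bases from IFI35 on the other strand, was at -0.16 ± 0.063 (SE) on the log2 scale. RPL27 on the other side was at 0.00 ± 0.064 (SE). RBM43, 8607 bases from NMI, was at 0.56 ± 0.18 (SE, edgeR adjusted p = 0.0561).

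IFI30 stood apart from the other 9 genes. It encodes the reductase GILT, which opens disulfide bonds of proteins in the lysosome so that their peptides can be shown on MHC class II, and it is known from antigen-presenting cells and as a target of interferon gamma. IFI30 (ENSG00000216490, chromosome 19, 18173162 to 18178117) was at 19.1, 23.9 and 23.5 CPM with siALDOA and at 19.9, 21.3 and 20.0 CPM with siControl. The groups overlapped, and the log2 fold change was 0.12 ± 0.098 (SE). It stayed between 0.06 and 0.22 under the 13 alternatives. PIK3R2, which lies 2630 bases to the left on the same strand, was at -0.20 ± 0.066 (SE), and did not pass the test. A further coding gene that GENCODE places over IFI30 on the same strand, without a symbol, is not among the listed symbols, so IFI30 reads may include its reads.

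The MHC class II route, in which IFI30 works, was looked at through a list of 12 genes. The chains HLA-DRA, HLA-DRB1, HLA-DPA1, HLA-DPB1, HLA-DQA1 and HLA-DQB1 were listed at 0 in every library. How multi-mapped reads were counted is not given. A 0 here, as for LGALS4 above, therefore need not mean that the transcript was absent. Of the 6 genes tested, 0 were higher and 1 was lower at an adjusted p below 0.05, against 4.36% and 5.29% of all genes tested, with a median log2 fold change of -0.13. HLA-DMB, which helps to load peptides, fell by 0.76 on the log2 scale (standard error 0.18, edgeR adjusted p = 0.00917). CIITA, the master regulator of these genes, was at -0.06 ± 0.12 (SE), CD74, the invariant chain, at 0.27 ± 0.13 (SE), and the proteases CTSS and LGMN at -0.15 ± 0.10 (SE) and -0.22 ± 0.073 (SE). None of these 4 genes passed the test.

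**Figure D3:**
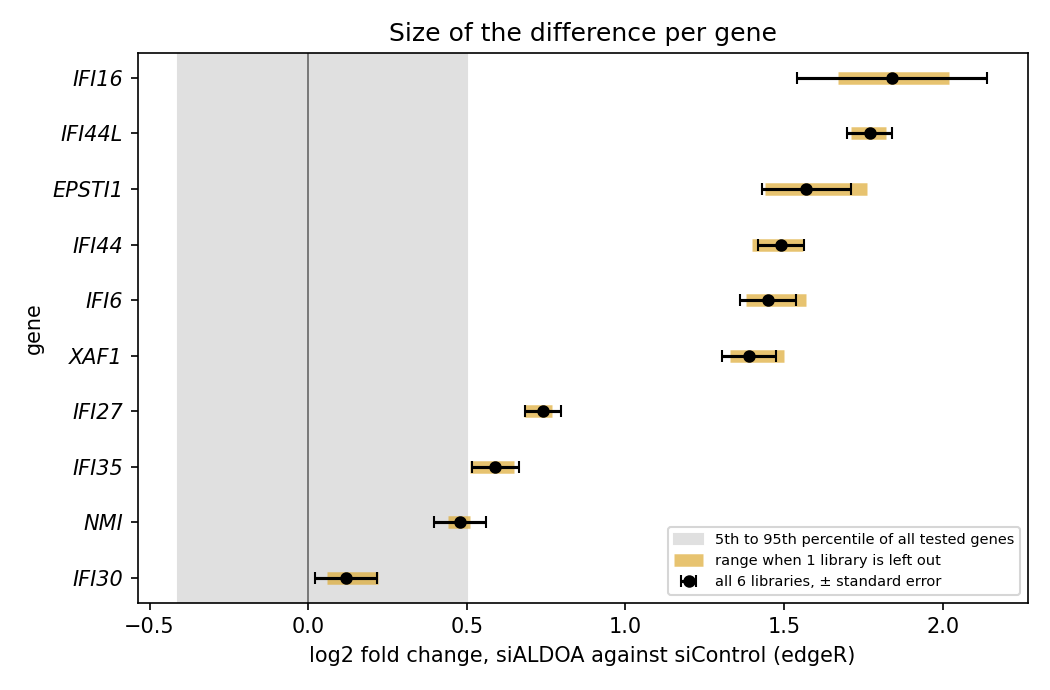
Log2 fold change of each gene between siALDOA and siControl with its standard error (black), the range of the value when 1 library is left out (yellow), and the band from the 5th to the 95th percentile of all tested genes (grey, -0.41 to 0.50). IFI16 to XAF1 lie between 1.39 and 1.84, IFI27, IFI35 and NMI between 0.48 and 0.74, and IFI30 at 0.12.

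Ordered by log2 fold change, the genes ran from IFI16, IFI44L, EPSTI1, IFI44 and IFI6 to XAF1, and then to IFI27, IFI35, NMI and IFI30. This order is a description, since the genes were chosen on these values. The widest steps between neighbours were 0.65 from XAF1 to IFI27 and 0.36 from NMI to IFI30, and the others were at most 0.20. No error is given for the steps, because the genes were measured in the same libraries. In the fits without 1 library, IFI16 ranged from 1.67 to 2.02, IFI44L from 1.71 to 1.82 and IFI27 from 0.68 to 0.77.

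Levels of different genes can be compared per length only, so CPM was divided by the summed exon length in GENCODE (release 44). In siControl, IFI6 stood at 117 ± 15.8 CPM per kb (SD, n = 3), IFI27 at 75.4 ± 4.88, IFI44 at 34.0 ± 3.78 and IFI35 at 20.8 ± 0.411 CPM per kb. IFI30, NMI, XAF1, IFI44L and EPSTI1 followed, from 8.71 down to 2.43 CPM per kb, and IFI16 was last at 0.145 ± 0.0353 CPM per kb. Only the ranges of XAF1 and IFI44L, among neighbours in this order, overlapped over the siControl libraries. With siALDOA the first 4 places and the last 2 were the same, while IFI44L moved from place 8 to place 5 and IFI30 from place 5 to place 7. The siALDOA range of IFI30 (8.14 to 10.2 CPM per kb) overlapped those of its neighbours XAF1 and NMI, so its place among them was not resolved. The level per kb depended on the length used. With the canonical transcript in place of all exons, a choice made after the data were seen, all 10 levels were higher. In siControl, IFI27 (725 in place of 4144 bases) was then at 431 CPM per kb and ahead of IFI6 at 135 CPM per kb. IFI35 was at 34.5, IFI30 at 20.7, NMI at 18.1, XAF1 at 8.07, IFI44L at 7.60, EPSTI1 at 3.84 and IFI16 at 0.266 CPM per kb, each over 1.5 times its level by exons, while IFI44 was at 41.2 CPM per kb. Apart from IFI27 and IFI6, the siControl order was the same with both lengths. The siALDOA order also changed for NMI, from place 8 to place 6, and for XAF1, from place 6 to place 8, and the ranges of IFI44L and NMI overlapped, so place 5 of IFI44L was not resolved with the canonical length.

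The libraries of a group stood in a similar order for many of the genes. siALDOA replicate 1 was the lowest siALDOA library for 8 of the 10 genes, and siALDOA replicate 2 the highest for 7. In siControl, replicate 2 was the highest library for all 10 genes. Replicate 1 was the lowest siControl library for 6 genes and replicate 3 for 4. The share of ribosomal RNA was 13.1%, 7.71% and 8.11% in siALDOA replicates 1, 2 and 3 and 17.4%, 15.3% and 8.15% in siControl replicates 1, 2 and 3, and its part in this order was not tested. The remaining ALDOA level in siALDOA replicate 1 was 283 CPM, between those of the other 2 siALDOA libraries. The median SD of log2 CPM within a group was 0.13 for the 10 genes in both groups, and 0.12 with siALDOA and 0.099 with siControl for all genes tested.

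**Figure D4:**
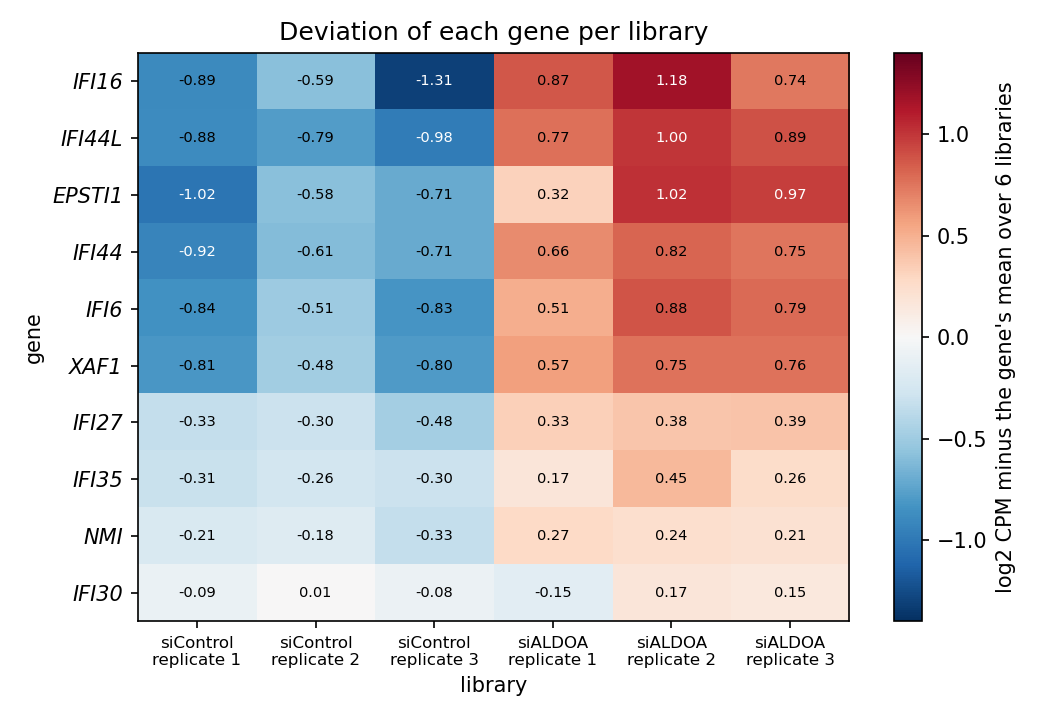
Deviation of each gene's log2 CPM from its own mean over the 6 libraries, in rows ordered by log2 fold change, with red above and blue below the mean. EPSTI1 is at 0.32 in siALDOA replicate 1 against 1.02 and 0.97 in the other siALDOA libraries, and IFI30 stays between -0.15 and 0.17.

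Among tested genes outside the 10, those whose course over the 6 libraries came closest to the median course of the 10 genes were NLRC5, TRANK1, SAMD9L, ISG15 and MX1. The measure was the root mean square distance of centred log2 CPM, and it ran from 0.0431 for NLRC5 to 0.0902 for MX1. For the 10 genes themselves it ran from 0.0757 for XAF1 and 0.0766 for IFI6 to 0.609 for IFI30.

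The genes that carry the interferon signal were looked at by role, from a list of 18 genes of which 17 were tested. In all, 7 were higher and 0 lower at an adjusted p below 0.05, against 4.36% and 5.29% of all genes tested, with a median log2 fold change of 0.27. Of 9 receptor chains and kinases, 1 was higher and 0 lower: IFNGR2, a chain of the interferon gamma receptor, rose by 0.27 ± 0.081 (SE, edgeR adjusted p = 0.0371), but passed the threshold in only 7 of 13 alternatives. The receptor chains IFNAR1 and IFNGR1 were at 0.06 ± 0.074 (SE) and -0.12 ± 0.071 (SE), and the kinases JAK1 and TYK2 at -0.15 ± 0.064 (SE) and 0.07 ± 0.076 (SE). Among the 5 transcription factors, 4 were higher. STAT2 rose by 0.78 ± 0.071 (SE, edgeR adjusted p = 1.63e-07), IRF7 by 0.76 ± 0.074 (SE), IRF1 by 0.39 ± 0.077 (SE) and IRF9 by 0.27 ± 0.076 (SE). IRF9 lost the threshold when siALDOA replicate 2 or 3 or any 1 siControl library was left out, with an adjusted p of up to 0.161. Of the feedback genes, ISG15, a ubiquitin-like modifier, rose by 1.18 ± 0.076 (SE) and USP18, which removes it and restrains the receptor, by 0.70 ± 0.099 (SE). SOCS1 was at 0.57 ± 0.32 (SE) with 31 to 68 counts per library, and SOCS3 had too few counts to be tested. The list was written with earlier results of these libraries known, so it is not independent evidence of its direction.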

How the data were processed

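RNA-Seq libraries of HT29 cells were sequenced by the authors as paired-end reads, aligned to hg38 with tophat2 and counted per gene with gfold. The deposited files hold these counts per gene symbol without normalization. The gene annotation, whether counting used strand, and how multi-mapped reads were counted are not given in the sources used here, so reads of overlapping genes may be shared.

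The 6 libraries, grouped by their labels, were compared in R 4.3.3 with edgeR 4.0.16 (filterByExpr, TMM, quasi-likelihood F-test, no covariate), and p-values were adjusted by Benjamini-Hochberg over the 15307 genes tested. Each standard error is the absolute log2 value over the root of its F statistic. CPM used TMM-scaled library sizes, and log2 CPM a prior count of 2. The labels call the replicates biological but do not name separate cultures, so p-values measure the spread between these samples only. Alternatives were limma-voom (limma 3.58.1), DESeq2 1.42.0, other scalings and filters, blocking on replicate number, and leaving out 1 library at a time. Positions came from GENCODE release 44 (hg38) and promoter windows from RefSeq (GRCh38.p14), where all 10 symbols matched.

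The members, the lists and the rule for named genes were chosen with earlier results of these data known. The rule took all 10 members, ALDOA, the called genes of each list and up to 4 others by mean CPM, neighbours, and the 5 genes nearest in profile. Not every gene taken is reported, and 1 gene planned for the signalling list is not reported here and was left out of that list and its counts, which therefore do not cover the list as planned. Protein sequences were not analysed here.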

Additional observations from a re-analysis of the deposited data

How the results depend on the processing

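The calls of the 10 genes, from which nothing is read, were 9 higher and 0 lower under all 13 alternatives to the fit, with IFI30 outside, and no log2 fold change of the 10 genes changed sign. Of 130 such values, 128 moved by less than 1 SD between replicates, and IFI27 and NMI moved by more with library totals only, to 0.81 and 0.56. The median of the 10 genes ranged from 1.36 to 1.53 over the fits without 1 library. With library totals only, the median of all tested genes was 0.075.

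Over all genes, 668 were higher and 810 lower (45.2% of calls higher). With library totals only there were 896 and 279 (76.3%), and over the fits without 1 library from 359 to 644 and from 471 to 790, lowest without siControl replicate 2 or 3. The relatives and partners described above formed a list of 10 genes, of which 7 were tested. In the main fit 1 was higher and 0 lower, against 4.36% and 5.29% of all genes tested. This relatives list had 2 higher genes in place of 1 with library totals only, DESeq2, no filter and the replicate block. It had from 1 to 2 without 1 library, each time through IFI27L1. The MHC class II list had 2 lower genes in place of 1 with no filter and with the replicate block, and from 1 to 2 without 1 library, through LGMN. The signalling list had from 5 to 7 higher genes. The correlation of deviations from the group means was 0.03 for each same-numbered pair. For the other pairs it ran from -0.05 to 0.02. These values do not decide whether the replicate numbers pair the samples. With the replicate block, 987 genes were higher and 1175 lower. The cause of these shifts was not tested. The ISRE core with up to 1 mismatch was in 9 of the 10 genes but in 37.7% of all genes with a window, and the form with a spacer of 1 base in 5. IFI16 had 19 to 97 counts per library, the fewest of the 10 genes, and the part of depth in its wide standard error was not tested.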

Other observations

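The ISRE core was also looked up in the promoter windows of the other tested genes that had one, a comparison chosen after the data were seen. Of 440 tested genes with an exact core of 2 GAAA and 2 bases between them, the 10 genes above left out, 67 were higher with siALDOA (15.2%) and 16 were lower (3.64%) at an adjusted p below 0.05 in edgeR's quasi-likelihood test. Of 10894 tested genes with a window and no such core, 437 were higher (4.01%) and 617 lower (5.66%). The median log2 fold change was 0.047 with the core and -0.0026 without it. No test was made of this difference.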
